A study of Mus musculus with 24 samples.

Results

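Loss of Mki67 was examined in small pre-B cells, the bone marrow B-cell progenitors that have left the cell cycle and rearrange the immunoglobulin light chain genes. The comparison holds the 8 libraries labelled as small pre-B, of 24 in the series: 4 from Mki67-/- mice and 4 from WT mice, numbered 1 to 4 in each genotype. The other 16 libraries, 4 per genotype of pre-pro-B cells and 4 per genotype of pro-B cells, served to place each region in development. All were sorted from bone marrow and profiled by ATAC-seq, in which a transposase cuts accessible DNA and enriched stretches are called as peaks. The labels give no strain, age, sex, sorting markers or position of the Mki67 mutation, and leave unsaid whether each library is a mouse of its own. The p-values therefore describe how much these libraries vary, which may be technical.

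Ki-67, the product of Mki67, is found in the nuclei of dividing cells, coats mitotic chromosomes and helps to organise heterochromatin. Pro-B cells rearrange the heavy chain locus Igh. A successful heavy chain is displayed with the surrogate light chain, made by Igll1, Vpreb1 and Vpreb2, as the pre-B-cell receptor on large cycling pre-B cells. The surrogate light chain genes are then silenced as cells become small pre-B cells, in which Rag1 and Rag2 cut the light chain locus Igk. The study's title concerns Ki-67, accessibility and antigen receptor rearrangement.

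Each deposited peak list held 77044 to 96819 entries in Mki67-/- cells and 84038 to 109713 in WT cells. Lists of different length cannot be compared by presence alone, so the 40000 strongest merged peaks of each library were used, ranked by the authors' −log10 q value. A region's rank is given in percent: 100 is the strongest peak of the library and 0 means no peak among the 40000. The libraries carried the marks of their label: the 10 small pre-B marker genes each had a peak in all 8 libraries, with 62, 62, 60 and 57 peaks in Mki67-/- cells and 54, 59, 57 and 62 in WT cells. The start site of Cd79a, a signalling chain of the B-cell receptor, ranked between 96.7 and 97.9 in every library. Of the marker genes of other cells, 5 of 20 T and NK genes, 5 of 18 myeloid genes and 2 of 14 erythroid and megakaryocyte genes had no peak among the 40000 of any library, Cd3e, Lyz2, S100a8 and Gata1 among them, and the others had one in at least 1 library. In the deposited lists, 2, 3 and 2 of these genes had none in any. The Mki67 start site (chr7:135715647-135717198) ranked 78.8, 85.8, 85.1 and 85.5 in Mki67-/- cells and 84.7, 84.2, 84.4 and 79.3 in WT cells, which overlapped, so this peak does not check the mutation.

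Regions at the surrogate light chain genes Vpreb2 and Igll1 ranked higher in Mki67-/- small pre-B cells than in WT small pre-B cells. The 250 bases before the transcription start of these genes and of Vpreb1 (RefSeq, GRCm38.p6) are shown because called regions lay at the starts of Vpreb2 and Igll1. Capitals mark matches to 5 motifs known from B-cell promoters, searched on both strands: TCCC and GGGA with any 2 bases between them (EBF), CAGCTG (E-box), TGGGAA (Ikaros), ATGCAAAT (octamer) and TGTGGT (RUNX). Vpreb2 lies on the plus strand at chr16:17980315-17980564, Vpreb1 on the minus strand at chr16:16869256-16869505 and Igll1 on the minus strand at chr16:16863986-16864235.
Vpreb2: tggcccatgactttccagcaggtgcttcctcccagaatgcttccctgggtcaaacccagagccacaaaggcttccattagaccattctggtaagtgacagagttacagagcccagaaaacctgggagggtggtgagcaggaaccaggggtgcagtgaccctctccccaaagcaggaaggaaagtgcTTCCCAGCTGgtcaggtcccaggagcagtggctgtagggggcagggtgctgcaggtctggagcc
Vpreb1: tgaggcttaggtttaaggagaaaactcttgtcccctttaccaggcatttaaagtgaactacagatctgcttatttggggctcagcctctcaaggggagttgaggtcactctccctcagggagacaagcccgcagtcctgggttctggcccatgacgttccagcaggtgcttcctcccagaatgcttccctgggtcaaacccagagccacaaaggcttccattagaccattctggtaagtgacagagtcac
Igll1: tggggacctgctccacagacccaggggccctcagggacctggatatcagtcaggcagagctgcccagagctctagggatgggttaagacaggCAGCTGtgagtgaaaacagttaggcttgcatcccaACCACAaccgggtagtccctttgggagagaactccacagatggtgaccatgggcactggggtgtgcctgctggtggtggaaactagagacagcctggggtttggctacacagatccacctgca
The Vpreb2 window holds an Ikaros match 64 to 59 bases before the start that overlaps an E-box match at 60 to 55. The Igll1 window holds an E-box match 158 to 153 bases before the start and a RUNX match at 123 to 118. The Vpreb1 window holds none of the 5. Where the Vpreb1 and Vpreb2 windows align, 104 of 106 bases are identical, with a longest identical run of 91. How reads with several possible origins were placed is not given in the sources used here, so the split of signal between Vpreb1 and Vpreb2 is uncertain.

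At the Vpreb2 start (chr16:17979864-17980782), the rank was 29.4, 53.6, 51.1 and 54.3 in Mki67-/- cells and 0 in all 4 WT libraries. The difference was 47.1 points (SE 6.1; limma, Benjamini-Hochberg adjusted p = 0.00142). The filter asks for a peak in at least 4 of the 8 libraries, which this region passed only through the Mki67-/- libraries. Its WT values have no spread. A region 9573 bp from the gene (chr16:17968917-17969872) ranked 64.0, 71.1, 69.2 and 70.7 in Mki67-/- cells and 0, 17.1, 21.9 and 14.4 in WT cells. Neither region had overlapping groups. The distal difference was 55.4 points (SE 5.3; limma adjusted p = 0.000486), and it was called in every run that left out 1 library. Both regions were open at the pro-B stage, where the Vpreb2 start averaged 84.8 in Mki67-/- and 79.5 in WT libraries and the distal region 85.3 and 76.8. The genotype difference was larger in small pre-B than in pro-B cells at both, by 41.7 points at the start (limma interaction, adjusted p = 3.07e-05) and by 46.9 points at the distal region (adjusted p = 2.67e-06). This interaction, here and at the other regions named, uses the same small pre-B values that called the region, so it is a description and no independent test. These are bulk libraries, so more cells with an open region and more accessibility per cell cannot be told apart.

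The other surrogate light chain gene starts gave 1 further call and 1 region that could not be tested. The Igll1 start (chr16:16863680-16864536) ranked 85.9, 91.4, 85.8 and 89.2 in Mki67-/- cells and 79.0, 78.5, 79.3 and 77.6 in WT cells. The groups did not overlap and the difference was 9.5 points (SE 1.3; limma adjusted p = 0.00215). When peaks were ranked by fold enrichment in place of the q value, this call was lost (limma adjusted p = 0.932), and the difference from the pro-B stage did not pass (adjusted p = 0.294). The Vpreb1 start (chr16:16869112-16869518) ranked 0, 48.0, 32.3 and 37.6 in Mki67-/- cells and 0 in all WT libraries. With peaks in 3 of 8 libraries it was under the minimum of 4 and was not tested.

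Of the 58 regions tested within 10 kb of the 15 pro-B and large pre-B marker genes, 5 were higher in Mki67-/- cells (8.62%) and 0 were lower (limma; at an unadjusted p under 0.05, 13 and 7). Over all 36921 regions tested, 4.68% were higher and 2.43% lower. The median difference over the 58 regions was -0.45 points and -0.43 over all regions tested. Besides the 3 surrogate light chain regions, the called ones lay by Cd93, a surface protein of early B cells, and Il2ra, the CD25 chain of the interleukin-2 receptor that marks large and small pre-B cells. The Cd93 region (chr2:148450954-148451714) ranked 58.3, 66.5, 68.2 and 58.8 in Mki67-/- cells and 43.3, 38.1, 37.9 and 42.0 in WT cells (difference 22.6, SE 3.9; limma adjusted p = 0.00586). The Il2ra region, in the gene body, ranked 32.9, 45.7, 25.0 and 40.2 in Mki67-/- cells and 0, 13, 15.6 and 23 in WT cells (difference 23.1, SE 6.4; limma adjusted p = 0.0485) and was called in only 2 of 8 runs that left out 1 library. Neither pair of groups overlapped. The start site of Kit, the stem cell factor receptor of pro-B cells, ranked 39.2, 53.4, 52.5 and 54.6 in Mki67-/- cells and 26.3, 33.1, 47.1 and 43.0 in WT cells, which did not pass (limma adjusted p = 0.203). Over the whole marker list, each Mki67-/- library held 72 to 76 peaks among its 40000 strongest and each WT library 63 to 67. In the deposited lists these sums overlapped between genotypes. Peaks near both Igll1 and Vpreb1 count for both genes, and the sums were not tested. Whether earlier cells within the sorted fraction have a part in the differences at these markers was not tested.

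**Figure D1:**
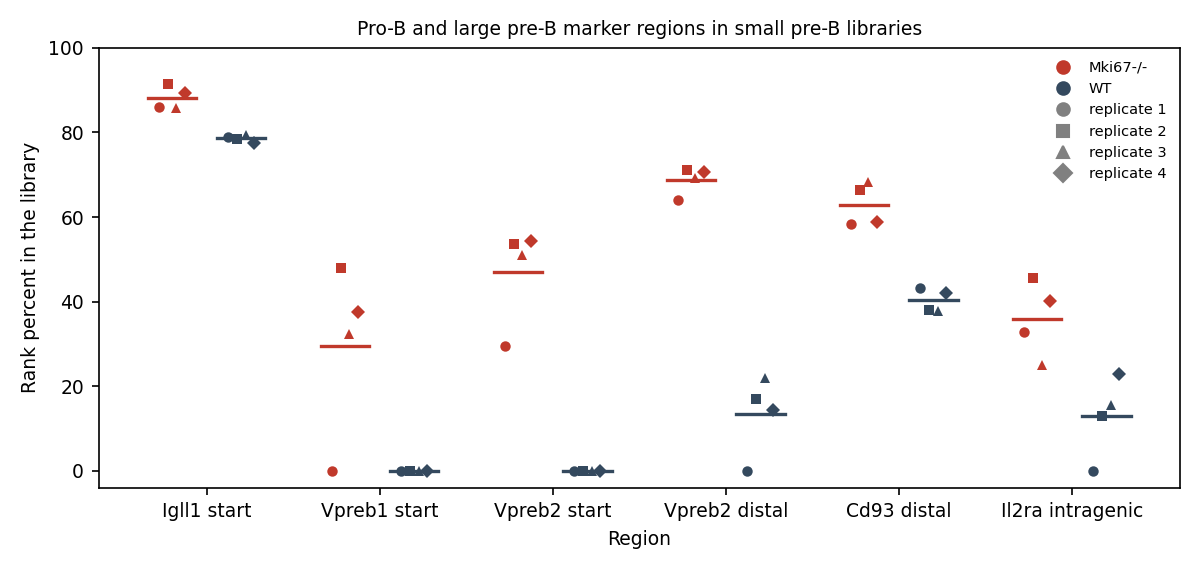
Rank in percent of regions at stage-marker genes in each small pre-B library, Mki67-/- left and WT right (points, libraries; bars, means). The Vpreb2 start ranks between 29.4 and 54.3 in Mki67-/- cells and 0 in every WT library.

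Across all regions, 1727 ranked higher in Mki67-/- small pre-B cells and 897 ranked lower (limma adjusted p under 0.05), and 8707 of the 36921 had an unadjusted p under 0.05. All 4 Mki67-/- ranks lay above all 4 WT ranks in 8.28% of all tested regions, and all 4 WT ranks above all 4 Mki67-/- ranks in 7.11%. The higher regions differed by a median of 24.17 points and reached 64.47, and the lower regions by a median of -19.31 and reached -73.91. In 324 of the higher regions no WT library had a peak among its 40000, and in 38 of the lower regions no Mki67-/- library had one. Over all tested regions these numbers were 535 and 172. Such regions passed the filter of at least 4 of the 8 libraries only through 1 genotype. The other genotype has no spread there. All regions named here with rank 0 in every library of a genotype are of this kind. Fewer of the called regions lay at transcription starts: 14.82% of the higher and 11.59% of the lower regions, against 26.38% of all tested. The higher regions were mostly in gene bodies (45.69%) or between genes (39.49%), as were the lower ones (50.5% and 37.9%). On chromosome X, 9 of 647 regions were higher and 24 lower. The number of calls depended on single libraries: it was 611 higher and 354 lower without Mki67-/- library 2, and 659 and 397 without Mki67-/- library 4. Without Mki67-/- library 3 it was 1073 and 819. It was 1010 and 418 without WT library 1, 915 and 261 without WT library 2, 1105 and 365 without WT library 3, and 1174 and 369 without WT library 4. With the background coverage of each library as a covariate, 1142 of the 1727 and 344 of the 897 were still called. With ranks by fold enrichment, 599 of the 1727 and 236 of the 897 were.

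Most regions that ranked higher were also open in pro-B cells. Of the 1727, 1621 (93.86%) had a peak in all 8 pro-B libraries of both genotypes, against 68.55% of all regions tested, and 25 had one in none. Of the 897 lower regions, 317 (35.34%) had a peak in all 8 pro-B libraries and 287 (32.0%) in none, against 13.12% of all tested. The median pro-B rank of the higher regions was 77.62 to 78.29 in Mki67-/- and 71.72 to 74.63 in WT pro-B libraries, and it was 0 in every pre-pro-B library. In small pre-B cells, where the regions were chosen, their median rank was 46.7, 55.77, 48.34 and 53.38 in Mki67-/- and 12.81, 19.62, 19.24 and 21.93 in WT libraries. The higher regions thus sat below their pro-B rank in both genotypes. The median rank of the lower regions was 0 in all 4 Mki67-/- pro-B libraries and 7.13 to 17.73 in WT pro-B libraries, and in small pre-B cells it was 32.08 to 35.88 in Mki67-/- and 55.58 to 56.6 in WT libraries. The genotype difference was itself different from that in pro-B cells at 828 of the 1727 higher and 348 of the 897 lower regions (limma interaction, adjusted p under 0.05). These regions were chosen on the small pre-B values that the interaction also uses, so the choice in part fixes these counts. Over all tested regions that interaction was positive in 3.6% and negative in 1.83%.

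**Figure D2:**
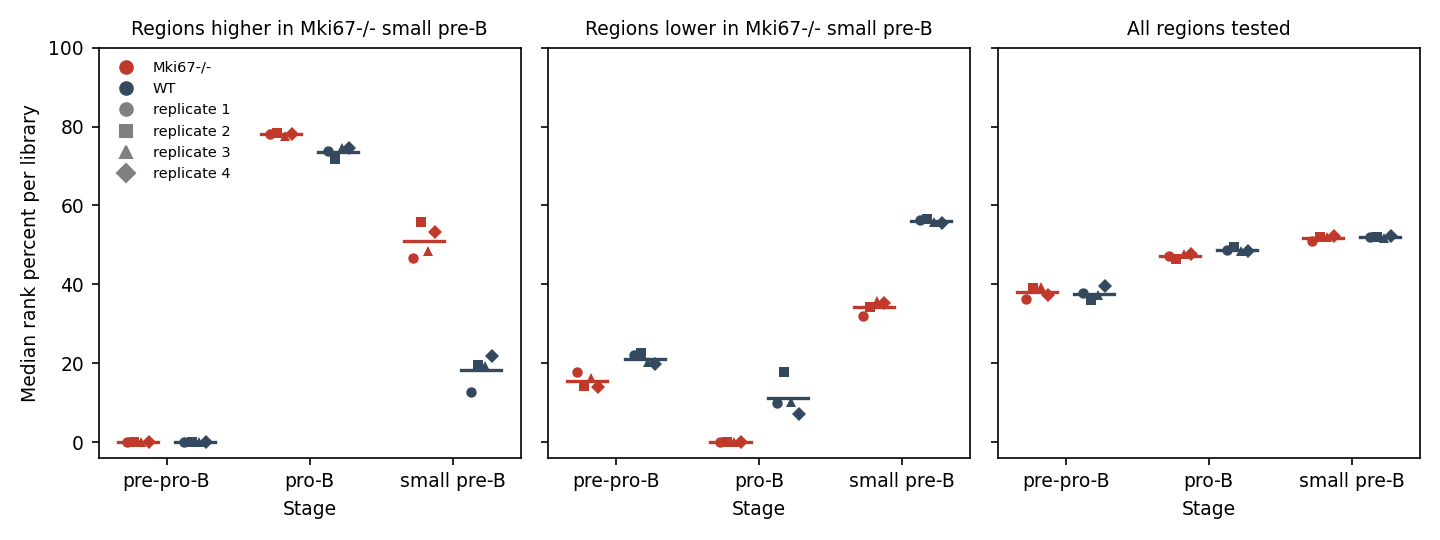
Median rank in percent of the regions called higher (left panel) and lower (middle panel) in Mki67-/- small pre-B cells and of all regions tested (right panel). Values are per library at each stage, Mki67-/- left of WT. The higher regions rank 77.62 to 78.29 in Mki67-/- and 71.72 to 74.63 in WT pro-B libraries; the small pre-B values chose the regions and are a description.

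Region classes defined from the 16 earlier libraries alone gave a value that the choice of regions does not fix. The first class had a peak in all 8 pro-B and no pre-pro-B library and held 7768 regions. Of these, 58.1, 73.3, 64.3 and 70% had a peak in the Mki67-/- small pre-B libraries and 48.2, 52.9, 53.4 and 53.5% in the WT libraries. Every Mki67-/- library lay above every WT library, and the means were 66.4 ± 6.70% in Mki67-/- and 52 ± 2.55% in WT (SD, n = 4 each; two-sided exact permutation p = 0.029, the smallest 4 against 4 allow, adjusted p = 0.0429 over 3 classes). Among the 18582 regions open in all 16 earlier libraries, 95.8 ± 1.01% had a peak in Mki67-/- and 93.5 ± 0.683% in WT libraries (SD, n = 4 each; exact permutation p = 0.029, adjusted 0.0429). Among the 8118 regions open in all pre-pro-B and no pro-B library, the share was 13.7 ± 0.97% in Mki67-/- and 16.1 ± 1.89% in WT libraries (exact permutation p = 0.0857), and the groups overlapped. The first 2 calls were lost on the deposited lists, where the differences were 14.8 and 1.71 percentage points (exact permutation, adjusted p = 0.214 and 0.371), and when any single WT library was left out (exact permutation, adjusted p 0.0571 to 0.0857). They were also lost with background coverage as a covariate, at 17.4 and 2.90 points (permutation, adjusted p = 0.0857), and without both libraries numbered 1, at 15.96 and 2.39 points (exact permutation, adjusted p = 0.1, the smallest 3 against 3 allow).

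Regions with no peak in any earlier library showed the opposite. Their number per library among the 40000 strongest peaks was 2689, 2353, 2894 and 2417 in Mki67-/- cells and 6284, 3429, 3513 and 3655 in WT cells. No Mki67-/- library reached the lowest WT library (two-sided exact permutation p = 0.029; this count was chosen after the data were seen). Among the 20000 strongest peaks it was 1726, 1496, 1836 and 1546 in Mki67-/- and 2092, 2038, 2155 and 2123 in WT cells (exact permutation p = 0.029). WT library 1 had the longest list, and without both libraries numbered 1 the groups still did not overlap, with an exact permutation p of 0.1 that is the smallest 3 against 3 allow. Since the lists are of equal length, more peaks in one class leave fewer places for another.

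The heavy chain locus Igh (chr12:113256204-116009954), which is rearranged before this stage, held more peaks in every Mki67-/- than in any WT library, and regions that ranked higher. It had 47, 54, 44 and 48 peaks in Mki67-/- libraries and 31, 29, 26 and 26 in WT libraries, without overlap (exact permutation p = 0.029, adjusted p = 0.171 over 6 antigen receptor loci). Of 36 regions tested in the locus, 13 were higher (36.11%, against 4.68% of all regions tested), 0 were lower (limma; at an unadjusted p under 0.05, 20 and 2) and the median difference was 14.3 points, against -0.43 over all regions. All 13 lay among the variable segments, where 27 of 28 regions had a positive difference (median 18). In the part with the D, J and constant segments, 8 regions were tested, 0 were called (0 higher and 2 lower at an unadjusted limma p under 0.05) and the median was -0.3. Of 120 variable segments, 10, 13, 7 and 10 had a peak within 500 bp in Mki67-/- libraries and 4, 4, 3 and 4 in WT libraries.

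The called Igh regions lay at several places among the variable segments. The region by Ighv14-4 (chr12:114182442-114183262) ranked 69.9, 82.4, 70.9 and 79.3 in Mki67-/- cells and 43.0, 37.7, 43.2 and 46.7 in WT cells, a difference of 32.9 points (SE 3.7; limma adjusted p = 0.000832). The region by Ighv1-11 (chr12:114609097-114609815) ranked 59.6, 66.4, 63.2 and 65.7 in Mki67-/- cells and 25.2, 28.0, 23.4 and 37.1 in WT cells (difference 35.3, SE 4.5; limma adjusted p = 0.00123). The region by Ighv1-70 (chr12:115703258-115704152) ranked 25.4, 45.1, 40 and 40.9 in Mki67-/- cells and 0 in all WT libraries (difference 37.9, SE 5.4; limma adjusted p = 0.00221). None of the 3 pairs of groups overlapped. These regions were strong in pro-B cells of both genotypes: the Ighv14-4 region averaged 93.0 in Mki67-/- and 88.9 in WT pro-B libraries, and the Ighv1-70 region 74.8 and 65.9. The difference exceeded that in pro-B cells by 28.9 points at Ighv14-4 (limma interaction, adjusted p = 5.19e-05) and by 29.0 points at Ighv1-70 (adjusted p = 0.000639). Of the 13 calls, 8 held in every run without 1 library in which they were tested, and the Ighv1-70 region was tested in only 4 such runs. With background coverage as a covariate 12 of the 13 held, and 5 held when peaks were ranked by fold enrichment. Variable segments of one family can be near-identical, so the assignment of signal to a single segment is uncertain.

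At the Ighm end of Igh the differences were negative but did not pass. A region by Ighm (chr12:113424179-113425635) ranked 2.7, 29.5, 47.1 and 28.9 in Mki67-/- cells and 49.2, 48.7, 55.3 and 51.5 in WT cells (difference -24.1, SE 7.6; limma adjusted p = 0.0773). Its neighbour (chr12:113418780-113420157) ranked 21.5, 5.6, 0.7 and 0 in Mki67-/- cells and 32.6, 35.5, 32.5 and 12.9 in WT cells (difference -21.4; limma adjusted p = 0.0738).

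At the light chain locus Igk (chr6:67555636-70726754), the one that small pre-B cells rearrange, few regions were called, all lower in Mki67-/- cells. It had 162, 150, 152 and 148 peaks in Mki67-/- libraries and 147, 160, 163 and 171 in WT libraries, which overlapped (exact permutation p = 0.343). Of 148 regions tested, 0 were higher and 6 lower (4.05%, against 2.43% of all regions tested; limma; at an unadjusted p under 0.05, 9 and 29), with a median of -2.5 points, against -0.43 over all regions. Among the 142 regions by variable segments, 93 had a negative difference. Of 102 variable segments, 66, 64, 65 and 63 had a peak within 500 bp in Mki67-/- libraries and 69, 70, 70 and 73 in WT libraries, so no Mki67-/- library reached a WT library.

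The 6 lower Igk regions had rank 0 on average in pre-pro-B and pro-B cells of both genotypes, that is, no peak among the 40000 strongest. In the deposited lists, the Igkv4-77 region had a peak in 1 Mki67-/- and 3 WT pro-B libraries, and the Igkv5-37 and Igkv3-5 regions in 1 WT pro-B library each. The region by Igkv6-14 (chr6:70435416-70435818) ranked 8.7, 9.8, 7.4 and 6.8 in Mki67-/- cells and 20.3, 36.3, 28.4 and 38.1 in WT cells (difference -22.6, SE 5.3; limma adjusted p = 0.0249). The region by Igkv5-37 (chr6:69970147-69970716) ranked 30.1, 11.4, 25.6 and 24.5 in Mki67-/- cells and 59.9, 54.4, 53.1 and 33.3 in WT cells (difference -27.3, SE 6.5; limma adjusted p = 0.0263). Both regions were lower in every Mki67-/- than in any WT library. The other 4, by Igkv3-5, Igkv8-21, Igkv4-77 and Igkv4-55, differed by -23.5 to -11.7 points with limma adjusted p between 0.0312 and 0.0486. None of the 6 was called in every run that left out 1 library, 1 was called with background coverage as a covariate and 3 with ranks by fold enrichment.

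**Figure D3:**
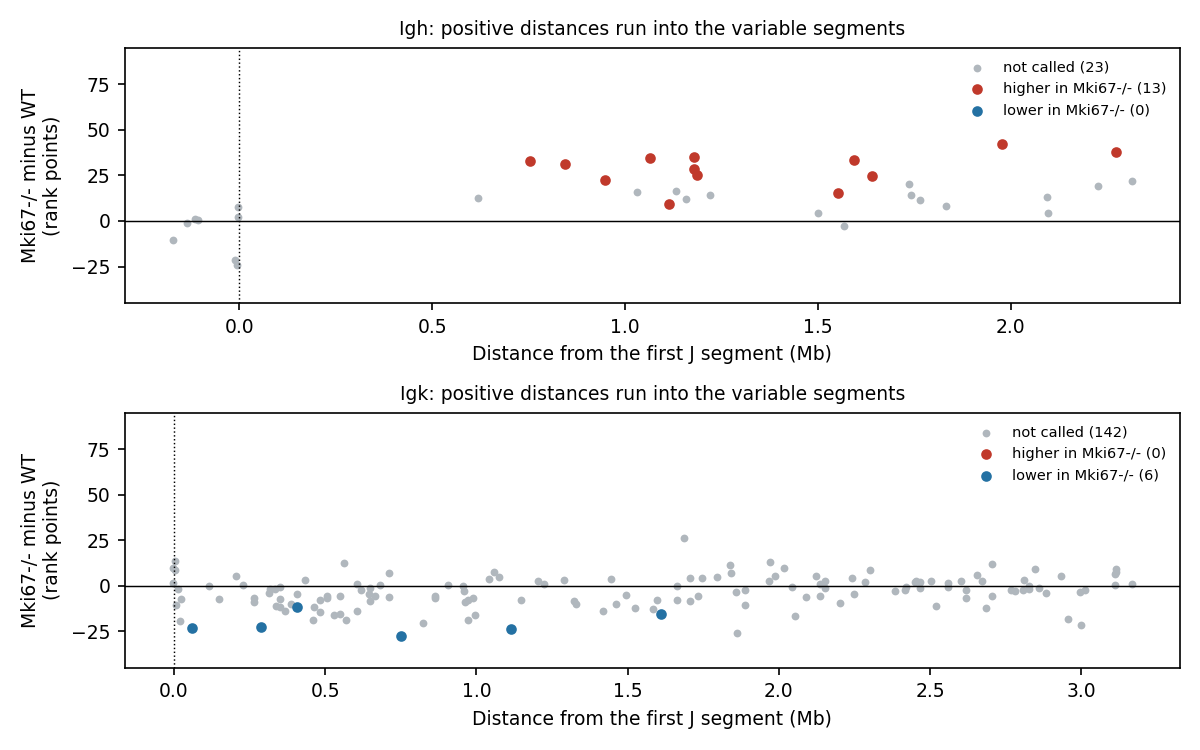
Difference in rank, Mki67-/- minus WT in percentage points, of each tested region along Igh and Igk by distance from the first J segment in Mb, positive towards the variable segments; red and blue points passed the limma test and grey points did not. Called Igh regions are all above 0 among variable segments, and called Igk regions are all below 0.

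The smaller loci gave few regions. At Igl, 1 of 12 tested regions was higher: by Iglc4 (chr16:19172170-19172507) the rank was 33.8, 39.2, 29.7 and 54.5 in Mki67-/- cells and 0, 0, 0 and 8.4 in WT cells (difference 37.2, SE 6.0; limma adjusted p = 0.00397). At Tcra/Tcrd, the T-cell receptor alpha and delta locus, 2 of 6 were higher, one by Trav9n-1 (chr14:53101984-53102407) with 40.3, 49.6, 34.7 and 51.9 in Mki67-/- cells and 0 in all WT libraries (difference 44.1, SE 5.3; limma adjusted p = 0.00109). That region averaged 83.2 in Mki67-/- and 72.8 in WT pro-B libraries. At Tcrb and Tcrg, 4 regions were tested in each and 0 were called (limma; at an unadjusted p under 0.05, 0 at Tcrb and 2 higher at Tcrg). The genotype difference in the peak number of a locus was not shown to differ between stages: the lowest adjusted p was 0.294, for Igh (permutation test).

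No call was made at the starts of the recombinase genes Rag1 and Rag2. Rag1 ranked 79.0, 77.6, 76.6 and 73.3 in Mki67-/- cells and 74.6, 79.0, 78.1 and 77.5 in WT cells (difference -0.7, SE 1.7; limma adjusted p = 0.846). Rag2 ranked 70.8, 68.8, 66.2 and 67.2 in Mki67-/- cells and 55.9, 67.5, 64.2 and 65.1 in WT cells (difference 5.1, SE 2.9; limma adjusted p = 0.316). The groups overlapped at both. Of 52 regions tested by 18 recombination and end-joining genes, 1 was higher (1.92%) and 0 lower (limma; at an unadjusted p under 0.05, 4 and 5). The shares over all regions tested were 4.68% higher and 2.43% lower. The start of Irf4, a factor that drives light chain opening, and that of Il7r, the interleukin-7 receptor, differed by 0.3 and -0.4 points (limma adjusted p = 0.946 and 0.964).

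Among 28 genes of transcription regulators of pre-B cells, 14 of 243 regions were higher (5.76%) and 10 lower (4.12%), against 4.68% and 2.43% of all regions tested (limma; at an unadjusted p under 0.05, 36 and 42). The higher share is near that over all regions, and the median difference was -0.12 points. Ebf1, which commits cells to the B lineage, had 3 of 16 regions higher, all inside the gene. The strongest (chr11:44928334-44928882) ranked 45.6, 48.9, 52 and 55.5 in Mki67-/- cells and 0, 15.6, 0 and 22.4 in WT cells (difference 41.0, SE 6.1; limma adjusted p = 0.0026). It averaged 87.4 in Mki67-/- and 82.7 in WT pro-B libraries, and the difference exceeded that in pro-B cells by 36.3 points (limma interaction, adjusted p = 0.000131). Runx1 and Tcf4, both needed in early B cells, each had 3 regions higher, of 8 and 14 tested. A Runx1 region (chr16:92715505-92716361) ranked 24.3, 48.5, 17.2 and 41.3 in Mki67-/- cells and 0 in all WT libraries (difference 32.8, SE 6.7; limma adjusted p = 0.0133). In Ets1, an Ets factor of lymphocytes, 1 region ranked 75.4, 85.8, 74.3 and 81.2 in Mki67-/- cells and 56.5, 58.8, 51.8 and 59.4 in WT cells (difference 22.5, SE 3.0; limma adjusted p = 0.00156) and another was lower. None of these pairs of groups overlapped.

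The 10 lower regulator regions lay in Foxp1, Ikzf1, Bcl11a and Pax5 among others. Foxp1, a forkhead factor needed for the pro-B to pre-B step, had 3 of 41 regions lower (limma adjusted p 0.0284 to 0.0464) and 0 higher. In Ikzf1, which encodes Ikaros, a region (chr11:11691768-11692078) ranked 20.2, 21.4, 20.6 and 32.7 in Mki67-/- cells and 46.1, 51.6, 48.8 and 38.6 in WT cells (difference -22.5, SE 5.2; limma adjusted p = 0.0228). It was at rank 0 in all pre-pro-B and pro-B group means. Regions of Bcl11a and of Pax5, which maintains B identity, were lower by -12.2 and -8.8 points (limma adjusted p = 0.0345 and 0.0442). Of the 24 called regulator regions, 8 were called in every run without 1 library in which they were tested. Regions of Ebf1, Runx1 and Tcf4 among those 8 were tested in only 4 such runs. With background coverage as a covariate, 14 of the 24 were called.

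Genes of pre-B-cell receptor signalling had called regions in both directions. Of 122 regions, 6 were higher (4.92%) and 3 lower (2.46%), which is near the share over all regions. In Pik3cd, the lymphocyte PI3-kinase subunit, a region (chr4:149696566-149697047) ranked 47.9, 51.9, 36.9 and 58.2 in Mki67-/- cells and 0, 5.4, 8.1 and 17.1 in WT cells (difference 41.1, SE 6.0; limma adjusted p = 0.00237). In Pik3ap1, an adaptor of the same kinase, a region (chr19:41274370-41275019) ranked 0, 19.4, 12.5 and 2.8 in Mki67-/- cells and 39.3, 35.9, 41.6 and 41.1 in WT cells (difference -30.8, SE 5.5; limma adjusted p = 0.00709). There was no overlap between genotypes at either.

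The starts of Blnk, the adaptor between the receptor and its downstream enzymes, and of Vav1, an exchange factor, moved apart. Their promoters (RefSeq, GRCm38.p6; Blnk on the minus strand at chr19:40994222-40994471, Vav1 on the plus strand at chr17:57278850-57279099) are shown with the same motifs in capitals.
Blnk: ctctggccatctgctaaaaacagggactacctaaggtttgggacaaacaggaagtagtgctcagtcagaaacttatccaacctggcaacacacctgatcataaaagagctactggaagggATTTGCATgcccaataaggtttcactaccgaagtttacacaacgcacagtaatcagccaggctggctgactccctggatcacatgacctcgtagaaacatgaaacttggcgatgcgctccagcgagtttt
Vav1: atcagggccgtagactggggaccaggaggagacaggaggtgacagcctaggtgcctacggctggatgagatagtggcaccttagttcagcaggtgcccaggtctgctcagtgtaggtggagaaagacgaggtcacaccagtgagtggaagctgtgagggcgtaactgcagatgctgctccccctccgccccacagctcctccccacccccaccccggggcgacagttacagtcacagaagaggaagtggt
The Blnk window holds an octamer match 130 to 123 bases before the start and the Vav1 window holds none of the 5 motifs. The Blnk start ranked 85.9, 83.2, 84.0 and 81.5 in Mki67-/- cells and 75.2, 77.9, 79.7 and 80.2 in WT cells (difference 5.4, SE 1.4; limma adjusted p = 0.0425). The Vav1 start ranked 72.3, 80.6, 80.3 and 79.9 in Mki67-/- cells and 87.0, 84.6, 86.1 and 83.2 in WT cells (difference -7.0, SE 1.8; limma adjusted p = 0.0371). The groups did not overlap, but the Blnk call was lost in all 8 and the Vav1 call in 6 of the 8 runs that left out 1 library. Over promoters, 317 lay under higher and 138 under lower regions, and the octamer was in 2.52% and 0.72% of them, against 1.35% of the 12917 promoters under all tested regions. The Ikaros motif was in 23.97% and 15.22%, against 19.35%. The RUNX motif was in 15.14% and 10.87%, against 10.63%, and the E-box in 15.14% and 14.49%, against 11.73%. The EBF motif was in 0.63% and 0.72%, against 0.88%. Over all 32619 RefSeq promoters the shares were 1.61% for the octamer, 21.73% for Ikaros, 13.95% for RUNX, 13.07% for the E-box and 0.78% for EBF. A match describes the letters only.

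Cell cycle genes are of interest because Ki-67 marks cycling cells. Of 47 regions by 23 genes of mitosis and the chromosome periphery, 0 were called in either direction (limma; 3 higher and 3 lower at an unadjusted p under 0.05; median 0.01 points). Over all regions tested, 4.68% were higher and 2.43% lower. Of 61 regions by genes of cycle exit and quiescence, 5 were higher (8.2%) and 1 lower (1.64%), with a median of -0.52. At an unadjusted limma p under 0.05, these genes had 8 higher and 3 lower regions. Among them, Ccnd3, the D cyclin that large pre-B cells need for division, had 2 of 12 regions higher. The first (chr17:47531129-47532112) ranked 84.5, 85.9, 82.0 and 85.7 in Mki67-/- cells and 75.0, 77.5, 74.5 and 75.4 in WT cells (difference 8.9, SE 1.3; limma adjusted p = 0.00264). The region by the Ccnd2 end (chr6:127151425-127152940) ranked 48.2, 56.9, 55.5 and 52.7 in Mki67-/- cells and 0, 33.9, 30.9 and 31.8 in WT cells (difference 29.2, SE 7.1; limma adjusted p = 0.0287). The groups did not overlap at either. Of these 6 calls, 2 held in every run that left out 1 library and 0 with ranks by fold enrichment, where 4 were tested.

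By 22 DNA replication genes, 1 of 58 regions was higher (1.72%) and 3 lower (5.17%), against 4.68% and 2.43% of all regions tested. At an unadjusted limma p under 0.05, 5 were higher and 5 lower. The region by Mcm5, a subunit of the replicative helicase (chr8:75119175-75120469), ranked 0, 9.7, 17.5 and 0 in Mki67-/- cells and 44.0, 38.8, 38.7 and 46.3 in WT cells (difference -35.1, SE 5.5; limma adjusted p = 0.00334). A region 5365 bp from Pola1, a subunit of DNA polymerase alpha, ranked 0, 9.4, 23.9 and 4.6 in Mki67-/- cells and 41.5, 39.4, 37.7 and 46.7 in WT cells (difference -31.8, SE 5.9; limma adjusted p = 0.00842). Both regions were lower in every Mki67-/- than in any WT library. Among 27 genes of heterochromatin and nuclear architecture, 4 of 70 regions were higher (5.71%) and 1 lower (1.43%). The higher share is near that over all regions. At an unadjusted limma p under 0.05, 9 were higher and 10 lower. A region 3226 bp from Dnmt3a, a DNA methyltransferase, ranked 49.6, 74.2, 67.7 and 75.3 in Mki67-/- cells and 24.6, 25.9, 0 and 16.5 in WT cells (difference 50.0, SE 7.1; limma adjusted p = 0.00221). One 6388 bp from Hmga1, an architectural DNA-binding protein, ranked 58.4, 57.2, 60.1 and 56.6 in Mki67-/- cells and 37.8, 30.2, 26.3 and 33.2 in WT cells (difference 26.2, SE 4.3; limma adjusted p = 0.004). Both were open in pro-B cells, the Dnmt3a region at 98.7 in Mki67-/- and 96.9 in WT libraries and the Hmga1 region at 81.4 in both.

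Markers of other cells gave small counts, set against 4.68% higher and 2.43% lower over all regions tested. Shares of higher regions in the T and NK and plasmacytoid dendritic lists exceeded the 8.62% of the pro-B and large pre-B list. At an unadjusted limma p under 0.05, the T and NK list had 4 higher and 2 lower regions. The plasmacytoid dendritic list had 6 and 9. Immature and mature B genes had 3 of 66 regions higher (4.55%) and 2 lower (3.03%). Of these, the start of Ltb, which encodes lymphotoxin beta, ranked 70.4, 71.5, 68.3 and 60.5 in Mki67-/- cells and 17.7, 49.0, 50.6 and 51.9 in WT cells (difference 25.4, SE 6.7; limma adjusted p = 0.0403). This call held in 2 of 8 runs that left out 1 library, and was lost with background coverage as a covariate (limma adjusted p = 0.0801) and with ranks by fold enrichment (limma adjusted p = 0.194). T and NK genes had 3 of 26 regions higher (11.54%) and 1 lower (3.85%), including one in Zap70, a T-cell kinase, that was also open at 92.6 in Mki67-/- and 90.8 in WT pro-B libraries. Their summed peaks were 26 to 29 per Mki67-/- library and 25 to 27 per WT library, with Cd3e, Cd8a, Cd8b1, Ncr1 and Gzmb at 0. Plasmacytoid dendritic genes had 5 of 43 regions higher (11.63%) and 1 lower (2.33%), with summed peaks of 46 to 50 per Mki67-/- and 41 to 48 per WT library. Of those 5, 3 are the Tcf4 regions named among the regulators. Stem and progenitor genes had 1 of 46 regions higher (2.17%) and 2 lower (4.35%), and their median difference was -2.53 points. None of the 5 immature and mature B, 4 T and NK and 3 stem and progenitor calls held in every run that left out 1 library. Myeloid (27 regions) and erythroid (21 regions) genes had 0 called (limma; at an unadjusted p under 0.05, 4 higher and 1 lower myeloid, and 1 and 1 erythroid). Their summed peaks were 28 to 30 per Mki67-/- and 27 to 30 per WT library for myeloid genes, and 21 to 25 and 21 to 22 for erythroid genes.

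**Figure D4:**
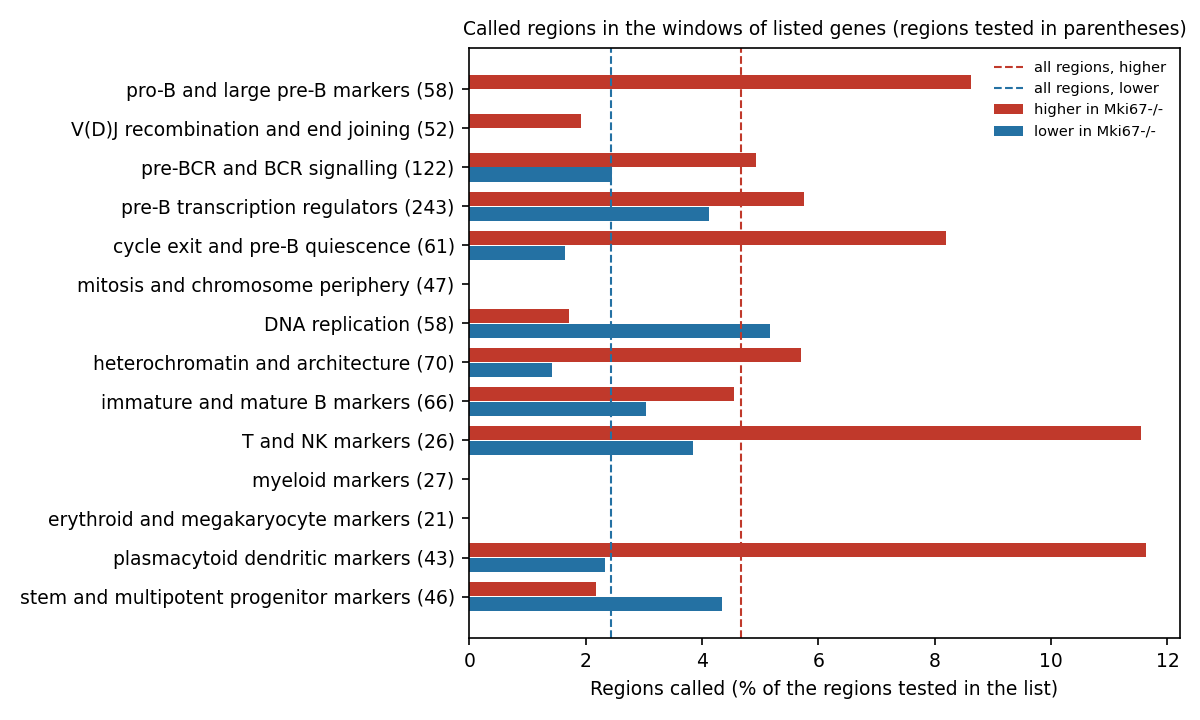
Share in percent of the regions tested in each gene list that ranked higher or lower in Mki67-/- than in WT small pre-B cells; vertical lines mark the shares over all regions. Over all regions 4.68% were higher and 2.43% lower.

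The regions with the smallest p-values lay nearest to genes outside the lists above. Of the 8 named higher regions, 3 lay within 10 Mb of Mki67 or on a segment of chromosome 11 or of chromosome 1, as did 4 of the 8 lower ones. Of these 3 segments, called linked segments here, the one on chromosome 7 was set by distance from Mki67. Those on chromosomes 11 and 1 were chosen because an earlier look at these data had set them apart by genotype. That choice in part fixes the shares of called regions. The 3 segments held 2.66% of the higher, 2.9% of the lower and 1.76% of all tested regions. Outside them, a region between genes 352887 bp from Mn1, a transcriptional coregulator (chr5:111809917-111810896), ranked 52.8, 66.1, 61.2 and 64.4 in Mki67-/- cells and 0, 0, 5.3 and 6.5 in WT cells (difference 58.2, SE 5.0; limma adjusted p = 0.000323). One 10055 bp from Nedd4l, a ubiquitin ligase (chr18:65227881-65228728), ranked 50.8, 63.4, 50.3 and 62.7 in Mki67-/- cells and 0, 0.3, 0 and 0 in WT cells (difference 56.7, SE 5.1; limma adjusted p = 0.000407). Both were strong in pro-B cells, at 91.7 in Mki67-/- and 89.2 in WT for Mn1 and at 91.3 and 84.5 for Nedd4l. Regions in Gpatch2 (nearest gene end Spata17), in Camk4 and by Slc38a6 differed by 64.5, 59.3 and 49.4 points (limma adjusted p = 0.00015, 0.000229 and 0.000473). The regions on linked segments, in Osbpl5, Sbk1 and Lyrm7, differed by 26.7, 24.4 and 54.0 points.

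Among the lower regions, one 9229 bp from Oxa1l (chr14:54350811-54351612), a mitochondrial insertase gene next to the T-cell receptor alpha locus, ranked 0 in all 4 Mki67-/- libraries and 73.3, 75.5, 76.0 and 70.9 in WT libraries (difference -73.9, SE 4.4; limma adjusted p = 1.75e-05). It averaged 0 in Mki67-/- and 51.4 in WT pro-B libraries, and 0 and 70.6 in pre-pro-B libraries, so it separated the genotypes at every stage. The region 29044 bp from Bhlhe40, a helix-loop-helix repressor (chr6:108630533-108631585), ranked 69.6, 70.7, 64.4 and 68.4 in Mki67-/- cells and 83.3, 83.3, 85.1 and 82.1 in WT cells (difference -15.2, SE 1.7; limma adjusted p = 0.000832). The region by Ldoc1 on chromosome X (chrX:61722103-61723438) ranked 7.9, 0, 0 and 0 in Mki67-/- cells and 65.2, 50.4, 49.1 and 42.0 in WT cells (difference -49.7, SE 5.8; limma adjusted p = 0.000926). The region in Bpifb2 differed by -49.6 points (limma adjusted p = 0.0011). The regions on linked segments, by Coro1a, Slc36a2, Ctbp2 and Xpo6, differed by -51.2, -27.2, -50.2 and -36.6 points. All 16 named regions held in every run without 1 library in which they were tested. The regions in Gpatch2 and Lyrm7 and those by Slc38a6, Oxa1l and Xpo6 were tested in only 4 such runs. Each had rank 0 in all libraries of 1 genotype, and without a library of the other genotype it fell under the filter. Those 4 runs therefore say little about how far the 5 calls rest on single libraries.

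By presence in the deposited lists, 460 regions had a peak in all 4 Mki67-/- and no WT library (0.477% of 96441) and 333 in all 4 WT and no Mki67-/- library (0.345%). Among the 40000 strongest peaks they were 535 (1.06% of 50456) and 172 (0.341%). Single libraries moved these numbers: without Mki67-/- library 1 the deposited lists gave 1600 and 370. The order of the sets turned round without 4 of the 8 libraries: it was 486 and 584 without Mki67-/- library 2, 490 and 651 without Mki67-/- library 4, 506 and 576 without WT library 2, and 523 and 659 without WT library 3. It also turned round with a −log10 q of at least 10, at 212 and 300, and where peaks had to cover 0.5 of the region, at 291 and 316. The 2 sets differed in kind: the median width was 660 bp for the Mki67-/- set and 347 bp for the WT set, against 505 bp for all. Of the 460, 414 (90.0%) had a peak in all 8 pro-B libraries, against 12 of the 333 (3.6%) and 48.86% of all 96441. Of the 460, 10 (2.17%) had a peak in no pro-B library, against 182 of the 333 (54.65%).

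Counted as peaks per gene, 106 of 15058 genes had more peaks in Mki67-/- cells (0.704%) and 45 fewer (0.299%; limma adjusted p under 0.05; 1268 had an unadjusted p under 0.05). Of these, 74 and 38 had 1 constant number in each genotype, so no spread stands behind their p. The number with fewer peaks was 75, 69, 70 and 83 without Mki67-/- libraries 1, 2, 3 and 4 in turn, and 83 without WT library 1. The genes with 1 constant number include the 14 tied first among the higher. Each had 1 peak among the 40000 strongest in every Mki67-/- and 0 in every WT library. Examples are Tyms, the thymidylate synthase gene, and Klrk1, the NK receptor gene. In the deposited lists Tyms had 2, 3, 3 and 2 peaks in Mki67-/- and 2, 1, 2 and 2 in WT libraries. Its 0 in WT cells therefore holds only among the 40000 strongest peaks. Those first among the lower, such as Cxcl9, a chemokine gene, had 0 and 1. The exact permutation p was 0.029 for 306 genes and no adjusted exact p was under 1.0. Without constant genes, 131 of 10423 were higher (1.26%) and 57 lower (0.547%). Tuba8, a tubulin gene, had 4, 4, 3 and 4 peaks in Mki67-/- and 1 in each WT library (limma adjusted p = 5.1e-05). Abraxas2, a deubiquitinase scaffold gene on chromosome 7, had 6, 6, 5 and 6 in Mki67-/- and 2, 3, 3 and 2 in WT libraries (limma adjusted p = 6.48e-05). Reln, which encodes the secreted protein reelin, had 4, 2, 3 and 4 in Mki67-/- and 7, 7, 6 and 6 in WT libraries (limma adjusted p = 0.000767). None of these groups overlapped.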

How the data were processed

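The 24 ATAC-seq libraries are deposited as 1 narrowPeak list each, on mm10 per the submitters' processing notes, which name Trimmomatic and MACS2 among the tools without versions or roles. Each deposited line gives a score, the fold enrichment of the summit over the local background (a ratio set by the authors' peak caller) and −log10 p and −log10 q values computed by the authors within each library. Read counts were not used here, and the aligner and the treatment of reads with several origins are not given in the sources used here. Depth is therefore known only through the lists: entries per library, and the background coverage that fold enrichment and −log10 p imply together, 1.86 to 3.06 in Mki67-/- and 2.4 to 3.7 in WT small pre-B libraries. The −log10 q of the last of the 40000 peaks was 11.23 to 27.19 in Mki67-/- and 19.67 to 34.98 in WT small pre-B libraries, so the lists reach different depths.

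Overlapping lines were merged within each library on chromosomes 1 to 19 and X, and union regions were built over all 24 lists. For the 40000 merged peaks with the highest −log10 q, the best rank in each region was fitted with limma 3.58.1 in R 4.3.3 (eBayes with trend, Benjamini-Hochberg at 0.05) over regions with a peak in at least 4 of the 8 libraries, and stage interactions over all 24 libraries. Peaks per gene with 10 kb on both sides were fitted as log2(peaks + 1). Single values per library were compared by two-sided exact permutation over 70 assignments. A region has a start site when a RefSeq transcription start lies within 500 bp. Gene names, segments and promoters came from RefSeq GRCm38.p6, which shares the coordinates of mm10.

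Named were Mki67, the 6 antigen receptor loci, the 8 regions and 10 genes per direction with the smallest p, the 5 regions per direction of highest rank present in all libraries of 1 genotype only, and members of the gene lists with the smallest p. Named beyond that rule, after their values were seen, were further called regions of list members, the stage marker starts, single variable segments and the genes with several called regions; the 5 regions per direction are given by their counts only. The design planned list counts by gene, and regions were counted instead because the gene test had little spread behind it. Members and lists were chosen with earlier results of these data known. Libraries of the same number showed little shared deviation (correlations 0.02, 0.01, 0.08 and -0.07). So few values cannot exclude pairing, and library 1 of both genotypes held few entries at Y-linked genes. The main fits used no pairing, and a replicate block is given among the alternatives. The first component of the ranks (38.3% of the variance) separated the genotypes and the second (19.6%) set Mki67-/- library 1 apart. Peak number and covered length did not pass a test between genotypes. Alternatives were other list lengths, filters, the ranking by fold enrichment, background coverage as covariate, a replicate block, linked segments left out, a spread from all 24 libraries, and libraries left out, of which leaving out both libraries numbered 1 was chosen after seeing the data.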

Additional observations from a re-analysis of the deposited data

Results flagged for a closer look

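Of 186 groups of 4 libraries tested for a single library far from the other 3, 22 were marked by Dixon's criterion, of which chance marks about 1 in 20. Among peak numbers of a locus, WT library 1 was lowest at Tcrb with 4 peaks and WT library 4 highest at Tcrg with 4. WT library 3 was lowest in Igh variable segments with a peak, at 3. WT library 1 was lowest for the share of pro-B regions, at 48.2%. It was also highest for regions with no peak in earlier stages, at 6284 among 40000 peaks and 20533 in the deposited list, where Mki67-/- library 1 was lowest among its group at 1509.

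Mki67-/- library 1 had the lowest rank of its group at the starts of Vpreb2 (29.4), Vav1 (72.3), Mki67 (78.8) and Kit (39.2), and the highest by Ldoc1 (7.9). Mki67-/- library 4 was highest at the Ikzf1 region (32.7). WT library 1 was lowest at Bcl11a (66.4), Ccnd2 (0) and Ltb (17.7), and WT library 4 at the Mki67 start (79.3) and the Ighm region (12.9). In WT groups otherwise at or near rank 0, WT library 2 stood out by Nedd4l (0.3), WT library 3 by the second Ighv1-11 region (6.5), and WT library 4 by Ighv1-62-1 (1.7) and Iglc4 (8.4).

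At 10 of the 16 named regions the genotype difference in small pre-B cells differed from that in pro-B cells (limma interaction, adjusted p under 0.05). The regions were chosen on the small pre-B values that this test also uses, so the count is a description. It was larger in small pre-B cells by 58.0 points in Camk4, 55.7 by Mn1, 49.9 by Nedd4l, 35.3 by Slc38a6, 22.5 in Sbk1, 17.4 in Gpatch2 and 16.8 in Osbpl5. It was more negative in small pre-B cells by -49.6 points in Bpifb2, -44.2 by Ldoc1 and -22.6 by Oxa1l.

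Outside the chromosomes compared, 7 of the 8 small pre-B lists held entries at 4 Y-linked genes: 0, 9, 9 and 9 entries in Mki67-/- libraries and 1, 8, 10 and 11 in WT libraries. The 2 libraries with few such entries are those numbered 1, and results without both are given among the alternatives.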

How the results depend on the processing

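Of 277 alternative values, 211 kept their direction and side of the threshold (for counts, stayed within 1.5 times), 41 counts moved by more, 16 lost the call and 9 changed sign. The cause was not tested for any. Region calls, higher and lower in Mki67-/-, were 572 and 407 with 20000 peaks, 756 and 488 with a peak required in all 8 libraries, 775 and 386 with ranks by fold enrichment, and 3073 and 2357 with 1 spread from 24 libraries. Of the 775 and 386, only 599 and 236 were also called in the main fit. With coverage as covariate the lower count was 409. Without 1 library they ranged from 611 to 1875 and from 261 to 1229. Under fold-enrichment ranks 20 higher and 22 lower calls changed direction, and 0 did under the other region alternatives except regions joined over the 8 libraries (1837 and 917 calls), where this was not counted. With the replicate block the calls were 1430 and 637, and the shares of stage classes, 14.437 and 2.298 points, lost their call (exact sign-flip adjusted p = 0.1875).

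The shares of pro-B regions and of regions open at both earlier stages also lost the call on deposited lists (14.758 and 1.712 points), with coverage (17.415 and 2.902) and without both libraries numbered 1 (15.963 and 2.389). Without 1 library they ranged from 12.149 to 17.23 and from 1.972 to 2.715, and the pre-pro-B share from -3.294 to -1.849. Regions in all 4 libraries of 1 genotype were 189 for Mki67-/- and 122 for WT with 20000 peaks, 172 for WT with 40000, 212 for Mki67-/- and 300 for WT at −log10 q of at least 10, 291 and 316 when peaks cover 0.5 of the region, and 1840 for Mki67-/- without both libraries numbered 1. Without 1 library they ranged from 486 to 1600 for Mki67-/- and from 370 to 659 for WT. Gene calls were 40 and 27 on deposited lists and 317 and 186 with 1 spread from 24 libraries, and ranged from 88 to 155 and from 47 to 83 without 1 library.

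Differences in covered length, never past the test, changed sign to 0.525 Mb with coverage and 1.235 Mb without both libraries numbered 1, where peak number, in units of 1000, became 3.382 and gene-end peaks -0.694 percentage points. Without 1 library they ranged from -1.927 to 0.34 Mb, -7.684 to -0.255 times 1000 peaks and 0.322 to 2.005 points. Peak number per locus changed sign on deposited lists at Igl (-1.5), Tcrb (3.25) and Tcrg (-0.25), and at Tcrb with 20000 peaks (0.25). Without 1 library it ranged from 18.333 to 21.667 at Igh, -11.667 to -3.667 at Igk, 0.083 to 1.083 at Igl, 2.0 to 3.333 at Tcra/Tcrd, -1.083 to -0.417 at Tcrb and 0.083 to 0.5 at Tcrg. The lists carry no read counts, so weak regions near the last place of the 40000 are the least certain.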

Other observations

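Some genes held several regions that ranked higher without Mki67; they were picked after the values were seen. Zmiz1, a coregulator of several transcription factors, had 5 of 24 regions higher and 1 lower in Mki67-/- than in WT small pre-B cells. Nav2 had 4 of 26 higher, Rad51b, a homologous recombination gene, 4 of 19, and Septin9 4 of 16. Zcchc7, the neighbour of Pax5, had 3 of 11. In the other direction, Elmo1, a regulator of Rac signalling, had 4 of 22 regions lower, Cdyl, a chromodomain corepressor, 4 of 11, and Maml2, a Notch coactivator, 3 of 13. In all, 1370 of 15010 genes had a higher region nearby, 756 a lower one and 117 both.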
